A study of Mus musculus with 103 samples.

Results

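Pax3 and Pax7, which encode a pair of closely related paired-box transcription factors, were followed in muscle stem cells of mice at 3 ages. They were taken by gene symbol and were 2 of the 43283 genes with an Ensembl identifier in a table of bulk RNA sequencing and 2 of 43282 in a table of single-cell wells. All mice were C57BL/6 and untreated. The bulk libraries came from 3 young mice of 3 months, 2 middle-aged mice of 12 and 13 months and 3 old mice of 24 months, which the design text counts as separate animals. The wells came from 1 old mouse (24 months, 31 wells) and 1 young mouse (3 months, 64 wells). For the young bulk libraries, a second label gives an age of 2 months.

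The labels give no sort gate and no surface marker for the isolation. A culture step with fibroblast growth factor 2 is described, but its place before or after RNA isolation is not stated, and the design text names the cells myoblasts. Bulk RNA came from 5000 to 10000 cells per library and was read in single reads of 75 bases, per the labels. Values are TPM, a unit of transcript abundance in which read counts are divided by transcript length and scaled to the same total in each library. TPM are shares, so they do not show the depth behind a value, and here a lower share cannot be told apart from fewer cells that express the gene.

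In the embryo, PAX3 marks the somite cells that build the skeletal muscles, and cells that keep Pax3 and Pax7 without differentiating become the stem cells of adult muscle. In adult muscle, PAX7 is the defining factor of these cells and is needed to maintain them, whereas Pax3 stays active in a subset of the cells, more in some muscles, such as the diaphragm, than in others. Both proteins bind DNA through a paired domain and a homeodomain and activate the myogenic gene Myf5, and PAX3 also acts in the neural crest, from which Schwann cells and melanocytes derive.

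Pax7 (ENSMUSG00000028736) lies at chr4:139737062-139833528 and Pax3 (ENSMUSG00000004872) at chr1:78101267-78197134, both on the minus strand of GRCm38, and 0 other annotated genes overlap either locus in GENCODE release 21 for mouse. Both messages are known targets of microRNAs of the muscle lineage: in mice miR-27b acts on Pax3 and miR-206 on Pax3 and Pax7. The mature sequences from RefSeq (GRCm38.p6) are shown with the seed, bases 2 to 8, in capitals.
mmu-miR-27b-3p: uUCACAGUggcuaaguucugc
mmu-miR-206-3p: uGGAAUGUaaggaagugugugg

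The 2 microRNAs have different seeds, and the letters that pair with them, ACTGTGA for miR-27b and ACATTCC for miR-206, do not overlap. They were searched on the transcript strand only, in the longest annotated 3′ untranslated region of each gene. The Pax3 region of 2038 bases (transcript Pax3-202) held 1 miR-27b match, at chr1:78102872-78102901 on the minus strand, here with the match in capitals.
Pax3 miR-27b match: ctgatcttgcccctaACTGTGAattgtccc
It also held 2 miR-206 matches, at chr1:78102465-78102494 and chr1:78101473-78101502, both on the minus strand and shown in that order.
Pax3 miR-206 match, upstream: atcaaagaagctaaaACATTCCgtgtgtgt
Pax3 miR-206 match, downstream: gaggtaggcacaaatACATTCCctttagat

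The Pax7 region of 3725 bases (transcript Pax7-201) held 0 miR-27b matches and 4 miR-206 matches, all on the minus strand. From the stop codon onward they lie at chr4:139739202-139739231, chr4:139738783-139738812, chr4:139738659-139738688 and chr4:139737321-139737350, and are shown because the 2 genes differ in their number of matches to both seeds.
Pax7 miR-206 match a: ccctcagccagcaagACATTCCtagagaga
Pax7 miR-206 match b: aatgcatcctcctccACATTCCttgctccc
Pax7 miR-206 match c: ccagccaagggagcaACATTCCaacgcttg
Pax7 miR-206 match d: accctgtgctgacgaACATTCCttcttccc

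Across 21010 coding genes, 3361 of the longest 3′ untranslated regions held ACTGTGA and 2112 (10.1%) held ACATTCC. Among regions within 1.5-fold of the length of the Pax7 region, 1167 of 3365 (34.7%) held ACTGTGA and 774 held ACATTCC, and 3 of them, Pax7 included, held ACATTCC at least 4 times. Among 5424 regions of a length like that of Pax3, 1259 (23.2%) held ACTGTGA and 757 held ACATTCC, with 73 (1.35%) holding ACATTCC at least 2 times. A match of letters is not a measured site. The hairpin entries Mir27b and Mir206 were listed at 0 TPM in all 8 bulk libraries, so the data give no level of either microRNA.

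Pax7 was among the most abundant transcripts in every bulk library and Pax3 was well below it. Pax7 was measured at 308, 316 and 248 TPM in young libraries 1 to 3, at 231 and 127 TPM in middle-aged libraries 1 and 2, and at 219, 246 and 185 TPM in old libraries 1 to 3. Middle-aged library 2 was the lowest, and the highest old library (246.47 TPM) lay just below the lowest young one (247.89 TPM), so the old and young ranges were separate by a narrow margin. By level within a library, Pax7 ranked from place 200 to place 509 among 12849 to 17114 genes found at 1 TPM or more.

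Pax3 was measured at 15.7, 9.86 and 14.3 TPM in young libraries 1 to 3, at 12.4 and 8.38 TPM in middle-aged libraries 1 and 2, and at 5.35, 6.14 and 5.38 TPM in old libraries 1 to 3. All old libraries lay below all middle-aged and all young ones, while the middle-aged and young ranges overlapped. It ranked from place 5523 to place 10778 by level. Group means were 13.3 ± 3.06 TPM in young (SD, n = 3), 10.4 ± 2.83 TPM in middle-aged (n = 2) and 5.62 ± 0.448 TPM in old libraries (n = 3), and for Pax7 they were 291 ± 37.4, 179 ± 73.0 and 217 ± 30.7 TPM in the same order. The order of the ages was thus not the same for the 2 genes: the mean of Pax7 was lowest at middle age and that of Pax3 at old age.

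**Figure D1:**
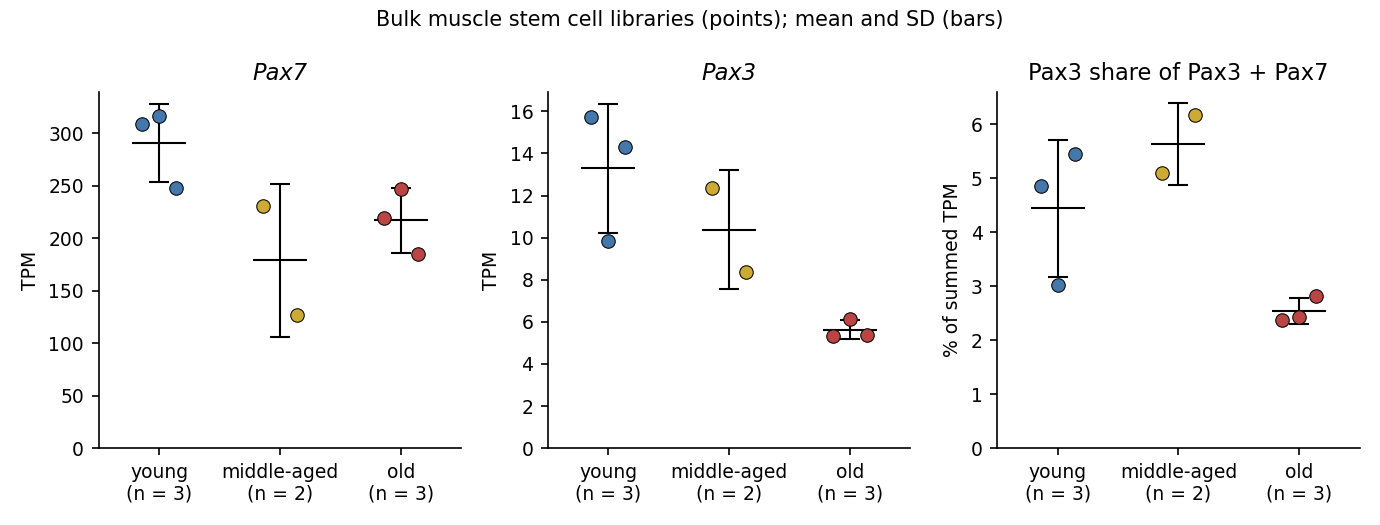
TPM of Pax7 and of Pax3, and the percentage of Pax3 in their summed TPM, in each bulk library (points), with the mean and SD of each age (horizontal line and bars). The 3 old libraries sit at 5.35 to 6.14 TPM of Pax3, below every young and middle-aged library, and at 2.38 to 2.82% in the share.

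In old against young libraries, the fitted level of Pax3 was 2.13-fold lower and that of Pax7 1.34-fold lower, and neither difference passed the test. The log2 difference of TPM + 1 was -1.09 ± 0.56 (SE) for Pax3, with a 95% interval of -2.32 to 0.14 and an adjusted p of 0.839 in limma. For Pax7 it was -0.42 ± 0.31, with an interval of -1.11 to 0.26 and an adjusted p of 0.839. On the log2(TPM + 1) scale the change of a low gene such as Pax3 is understated. Of the 22492 genes tested, 0 passed an adjusted p of 0.05 (0%), and 1325 had an unadjusted p below 0.05 (5.89%); the unadjusted p was 0.0775 for Pax3 and 0.201 for Pax7.

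Both genes had all 3 old libraries below all 3 young ones, as did 936 of the 22492 genes (4.16%). Among the 4388 genes with a mean level within 1.5-fold of that of Pax3, 224 (5.10%) had this separation and 656 (14.9%) had a fitted difference at or below that of Pax3. For Pax7, 22 of 262 genes of like level (8.40%) were separated and 69 (26.3%) had a difference at or below its own. Exact permutation of the libraries gave a two-sided p of 0.1 for each gene, the smallest that 20 splits of 3 against 3 libraries can give, and 0.18 after Benjamini-Hochberg adjustment over 9 tests of these genes and their ratio. This design cannot reach 0.05.

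In middle-aged against young libraries, Pax7 had the larger difference of the 2 genes, with all libraries of middle age below all young ones, and Pax3 overlapped. The log2 difference was -0.75 ± 0.35 (SE) for Pax7, with a 95% interval of -1.52 to 0.01 and an adjusted p of 0.626 in limma. For Pax3 it was -0.33 ± 0.62, with an interval of -1.70 to 1.05 and an adjusted p of 0.899. Of the genes tested, 1 passed the adjusted threshold (0.00445%), which was neither Pax3 nor Pax7, and 1750 had an unadjusted p below 0.05 (7.78%). In 1207 genes (5.37%), both middle-aged libraries lay below all young ones, as in Pax7. Among the 262 genes of like level to Pax7, 39 (14.9%) had this separation and 27 (10.3%) had a fitted difference at or below that of Pax7. The exact permutation p was 0.1 for Pax7 (adjusted 0.18) and 0.4 for Pax3 (adjusted 0.45), where 10 splits allow no p below 0.1. The Pax7 value rested on middle-aged library 2: the difference was -0.33 without it and -1.18 without middle-aged library 1.

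In old against middle-aged libraries, the 2 genes differed in the sign of their fitted values. Pax3 was lower in all 3 old libraries, with a log2 difference of -0.76 ± 0.62 (SE), an interval of -2.14 to 0.62 and an adjusted p of 0.804 in limma. Pax7 overlapped, with 0.33 ± 0.35, an interval of -0.44 to 1.09 and an adjusted p of 0.829, and its sign turned without middle-aged library 2 (-0.10). In this comparison 0 genes passed the adjusted threshold (0%), 1392 had an unadjusted p below 0.05 (6.19%), 2868 genes (12.8%) lay below both middle-aged libraries in every old library, as Pax3 did, and 1608 (7.15%) lay above them. Among the 4388 genes of like level to Pax3, 621 (14.2%) were lower in every old library and 1311 (29.9%) had a fitted difference at or below that of Pax3. The exact permutation p was 0.1 for Pax3 (adjusted 0.18) and 0.5 for Pax7 (adjusted 0.5). The 3 comparisons share libraries, so their values are not independent of each other.

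**Figure D2:**
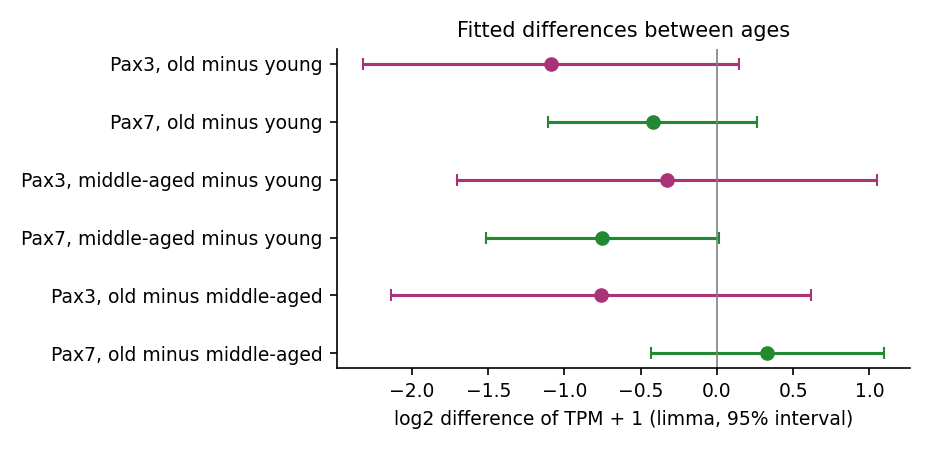
Fitted log2 difference of TPM + 1 between ages for each gene (points) with its 95% interval in limma (bars), over 3 young, 2 middle-aged and 3 old libraries. Every interval includes 0, and the lowest value is that of Pax3 in old minus young, -1.09.

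The share of Pax3 in the summed TPM of the 2 genes compares them within each library and does not depend on how that library was scaled. It was 4.85, 3.02 and 5.45% in young libraries 1 to 3, 5.10 and 6.17% in middle-aged libraries 1 and 2, and 2.38, 2.43 and 2.82% in old libraries 1 to 3. The old libraries were the lowest of the 8 and close to each other, but the nearest young library (3.02%) lay only just above the highest old one. Put as a ratio of TPM, there were 17.3 to 32.1 Pax7 transcripts for each Pax3 transcript in young libraries, 15.2 to 18.6 at middle age and 34.4 to 41.02 in old libraries.

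The log2 ratio of Pax3 to Pax7 was taken of TPM + 1, so it differs from the plain ratio of TPM. It was -5.03 ± 0.14 in old and -4.37 ± 0.44 in young libraries (SD, n = 3 each), a difference of -0.67 with an exact permutation p of 0.2 (adjusted 0.3). With 0.1 added in place of 1 this difference was -0.78 (exact permutation p = 0.1), and with 5 added it was -0.36 (exact permutation p = 0.2). With 1 added, old minus middle-aged was -1.09 (exact p = 0.1, adjusted 0.18), and middle-aged minus young was 0.42 (exact p = 0.4, adjusted 0.45). The ratio compares the change of the 2 genes with each other, but with no p below 0.1 possible these libraries cannot decide at 0.05 whether the changes differ.

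Summed levels of several marker lists were also unequal between the ages, and their part in the Pax3 and Pax7 values was not tested. The summed level of 11 Schwann cell markers was 429 to 1388 TPM in old libraries, against 68.6 to 160 TPM in young ones, with 181 to 389 TPM at middle age. All 11 had a higher fitted value in old libraries (median log2 difference 2.55, against 0 over all tested genes), 8 of the 11 with every old library above every young one, where 5.85% of all genes were, and 0 passed the adjusted threshold. Sox10, a factor of the neural crest and of Schwann cells, was at 51.99, 43.2 and 27.95 TPM in old libraries 1 to 3, against 1.83, 11.5 and 6.28 TPM in young libraries 1 to 3. Pax3 had its lowest values in the old libraries, which also held the most Schwann cell transcripts. Within the old libraries, library 2 had the highest level of both, 6.14 TPM of Pax3 and 1388 TPM of Schwann cell markers. Both differ with age here, and a link between them was not tested.

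The 6 melanocyte markers summed to 3.45 to 7.72 TPM in old libraries, against 0 to 3.98 TPM in young ones, with Mlana and Slc45a2 at 0 in all 8. Sums in old against young libraries were 768 to 1223 against 571 to 774 TPM for 7 markers of fibro-adipogenic progenitors, 68.7 to 81.5 against 9.76 to 29.1 TPM for 5 tenocyte markers and 403 to 785 against 379 to 567 TPM for 6 markers of smooth muscle cells and pericytes. They were 25.4 to 35.9 against 11.6 to 15.04 TPM for 6 endothelial markers (Cldn5 and Tie1 at 0 throughout), 7.38 to 23.6 against 5.38 to 29.4 TPM for 6 macrophage markers (C1qa at 0) and 4.72 to 9.41 against 0 to 25.3 TPM for 6 muscle fibre markers (Pvalb at 0). Single markers did not all follow these sums. In old against young libraries, 5 fibro-adipogenic markers had a higher and 2 a lower fitted value. Ly6a was at 0 TPM in all old libraries, against 152, 72.3 and 0 TPM in young ones. Of the smooth muscle and pericyte markers, 5 were higher and 1, Rgs5, was lower (mean 190 against 315 TPM). The old values of Acta2, Myh11 and Cspg4 were all higher than the young ones. In both lists 0 passed the adjusted threshold. At middle age, where the mean of Pax7 was lowest, tenocyte markers summed to 61.3 and 91.4 TPM and endothelial markers to 76.6 and 34.3 TPM in libraries 1 and 2, all above every young library. The middle-aged sums were 868 and 700 TPM for fibro-adipogenic progenitors, 475 and 656 TPM for smooth muscle cells and pericytes, 29.1 and 19.7 TPM for macrophages, 11.04 and 0 TPM for muscle fibres and 6.35 and 6.49 TPM for melanocytes. The 11 muscle stem cell markers, Pax3 and Pax7 among them, summed to 1545 to 1685 TPM in young libraries, 1376 to 1762 TPM at middle age and 1147 to 1706 TPM in old libraries, and 0 of them was at 0 in all libraries. Transcripts of the mitochondrial genome took 32.7 to 46.5% of the TPM of a library without separating the ages, and log2 levels correlated between libraries at 0.698 to 0.821 across genes.

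The other members of the gene family were low or uneven. Pax8, a factor of thyroid and kidney, was at 27.1, 0 and 31.5 TPM in young libraries, 85.8 and 4.64 TPM in middle-aged libraries and 1.21, 2.44 and 2.96 TPM in old libraries, so replicates of 1 age differed by more than the ages. Pax5, a factor of B cells, was at 0.68 to 5.93 TPM in young, 10.5 and 12.8 TPM in middle-aged and 1.45 to 3.97 TPM in old libraries. Pax6 did not exceed 9.90 TPM and Pax9 7.17 TPM, and each was listed at 0 in at least 3 libraries. Pax1, Pax2 and Pax4 fell under the filter of a mean of 1 TPM and were not tested. Of the 6 Pax genes tested, 0 passed the adjusted threshold in any comparison.

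None of the 17 genes for partners and modifiers of the PAX3 and PAX7 proteins passed the adjusted test in any comparison; in old against young libraries 10 had a higher and 7 a lower fitted value (median log2 difference 0.23, against 0 over all genes). Csnk2a1 encodes a catalytic subunit of casein kinase 2, which phosphorylates PAX7. It was at 17.6, 19.7 and 20.4 TPM in old libraries 1 to 3, against 36.2, 39.5 and 30.7 TPM in young libraries 1 to 3, a log2 difference of -0.85 ± 0.42 (SE; limma adjusted p = 0.839). Wwtr1 encodes TAZ, a coactivator that binds PAX3. It was at 51.5, 54.3 and 61.4 TPM in old libraries, against 40.1, 36.7 and 37.6 TPM in young ones, with middle age between them at 42.7 and 44.9 TPM. Its log2 difference in old against young libraries was 0.53 ± 0.34 (SE; limma adjusted p = 0.839). Of the 17 genes, Csnk2a1 was the 1 with every old library below every young one, against 4.16% of all genes, and Wwtr1 the 1 with every old library above, against 5.85%, so neither count is far from that over all genes. Sirt2, for a deacetylase that acts on PAX7, was at 111, 114 and 306 TPM in old libraries, against 173, 82.8 and 56.1 TPM in young ones, and Jarid2, for a subunit of a Polycomb complex, at 245, 256 and 141 TPM, against 253, 480 and 214 TPM, and the ranges of each overlapped.

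Genes known as targets of PAX3 or PAX7 were divided between higher and lower values. Of 14 listed, 12 passed the filter on low values, of which 6 had a higher and 6 a lower fitted value in old against young libraries, with a median log2 difference of -0.15 and 0 past the adjusted threshold. Met and Ret were the 2 of 12 with every old library below every young one, against 4.16% of all genes. Met, the receptor for hepatocyte growth factor that migrating precursors of limb muscle need, was at 13.5, 12.6 and 13.6 TPM in old libraries, against 24.9, 24.6 and 18.3 TPM in young ones. Its log2 difference was -0.72 ± 0.47 (SE; limma adjusted p = 0.839), and middle-aged libraries 1 and 2 lay at 13.0 and 24.3 TPM, on either side. Ret, a receptor tyrosine kinase, was at 0, 2.92 and 3.85 TPM in old libraries, against 5.83, 11.6 and 4.45 TPM in young ones, a difference of -1.54 ± 0.90 (SE; limma adjusted p = 0.839).

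The myogenic factors among the targets overlapped between old and young libraries. Myf5, a direct target of both proteins, was at 116, 286 and 185 TPM in old libraries, against 152, 321 and 262 TPM in young ones. Myod1, which drives commitment to differentiation, was at 9.24, 20.2 and 10.2 TPM in old libraries, against 33.4, 17.4 and 6.33 TPM in young ones. Their log2 differences were -0.35 ± 0.42 and -0.31 ± 0.83 (SE).

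Id2 and Id3, inhibitors of such factors, had differences of 0.00 and 0.25 in old against young libraries. Fgfr4, a fibroblast growth factor receptor, had 0.04, and Hes1, an effector of Notch signalling, 0.09. Spry1, an inhibitor of receptor tyrosine kinase signalling that helps stem cells return to quiescence, had -0.40. Dmrt2, a factor downstream of Pax3 in the somite, was at 12.5, 4.81 and 13.1 TPM in old libraries, against 15.02, 22.4 and 12.2 TPM in young ones (-0.72). Lbx1, which marks migrating limb precursors, was at 1.68, 16.96 and 2.46 TPM in old libraries, against 10.1, 0 and 0 TPM in young ones, so 1 library of each age held most of it. The melanocyte factor Mitf reached at most 6.64 TPM, and Dct, a melanocyte enzyme, and Foxc2, a forkhead factor, were too low to test.

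In middle-aged against young libraries, 5 of the 12 tested targets had a higher and 7 a lower fitted value, with a median of -0.14 against 0.18 over all genes, and 0 passed the adjusted threshold. Id3 was the 1 target with both middle-aged libraries above all young ones, which 12.6% of all genes were, at 188 and 139 TPM against 102, 96.2 and 62.7 TPM in young libraries. Fgfr4, Dmrt2 and Ret, 3 of 12, had both below all young ones, against 5.37% of all genes. Fgfr4 was at 61.3 and 60.5 TPM against 158, 102 and 62.4 TPM in young libraries.

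**Figure D3:**
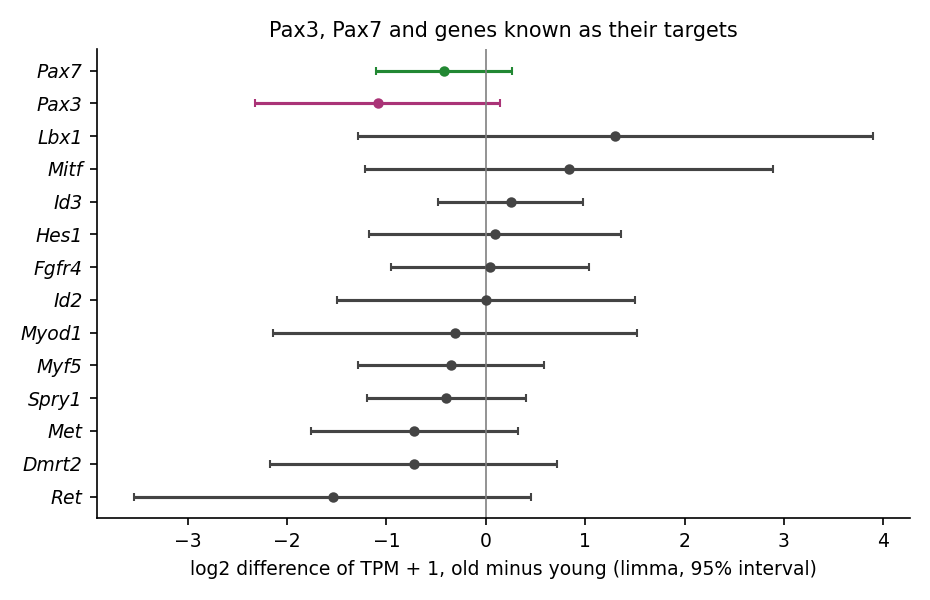
Fitted log2 difference of TPM + 1, old minus young, with 95% intervals in limma for Pax7, Pax3 and the 12 target genes that passed the filter on low values, over 3 libraries of each age. Every interval includes 0, and the targets run from Ret at -1.54 to Lbx1 at 1.30.

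A further set of transcription factors and their cofactors acts upstream of or beside Pax3 and Pax7 in muscle progenitors. Of 16 such genes, 14 were tested, and 6 had a higher and 8 a lower fitted value in old against young libraries (median log2 difference -0.12), with 0 past the adjusted threshold and 0 separated between the ages. Meox2, a homeobox factor, was at 21.3, 38.2 and 28.6 TPM in old libraries, against 21.3, 13.4 and 19.5 TPM in young ones (0.66). Eya1, a coactivator with phosphatase activity, was at 10.7, 28.5 and 8.89 TPM in old libraries, against 22.4, 17.6 and 23.4 TPM in young ones (-0.54), and the ranges of both genes overlapped.

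Of 20 genes of muscle stem cell identity, 7 had a higher and 13 a lower fitted value in old against young libraries, with a median log2 difference of -0.24. In middle-aged against young libraries 1 had a higher and 19 a lower value, with a median of -0.64 against 0.18 over all genes. At that age the mean of Pax7 was lowest, and the summed Schwann cell, melanocyte, tenocyte and endothelial markers each lay above all young libraries. The part of these markers in the values was not tested. In both comparisons 0 of the 20 passed the adjusted threshold. Chodl, which encodes the membrane lectin chondrolectin, was at 351, 628 and 496 TPM in old libraries, against 758, 819 and 1142 TPM in young ones. Its log2 difference was -0.90 ± 0.32 (SE; limma adjusted p = 0.773). Sdc4, a heparan sulfate proteoglycan of the cell surface, had higher values, with 376, 354 and 343 TPM in old libraries, against 335, 252 and 228 TPM in young ones (0.42). Calcr, the calcitonin receptor that keeps these cells quiescent, and the receptor gene Megf10 had differences of -0.54 and -0.46 with overlapping ranges. Myf5, Fgfr4 and Spry1 stand in both the identity and the target lists.

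Because the level of Pax3 in adult stem cells differs between muscles, 14 genes that mark position along the body and limb were set beside it. The labels do not give the muscles of origin. Of these, 12 were tested, and 5 had a higher and 7 a lower fitted value in old against young libraries (median log2 difference -0.56), with 0 past the adjusted threshold. Hoxc9 was at 17.6, 13.1 and 3.87 TPM in old libraries, against 16.9, 70.8 and 33.8 TPM in young ones (-1.71 ± 0.69, SE; limma adjusted p = 0.808). Hoxa10 was at 10.1, 20.4 and 22.2 TPM in old libraries, against 24.3, 19 and 48.5 TPM in young ones (-0.73), and was lowest at middle age, at 9.32 and 4.14 TPM. Tbx15, a T-box factor, was at 8.01, 6.16 and 10.9 TPM in old libraries, all below the 12.4, 14.4 and 12.5 TPM of young ones (-0.62; limma adjusted p = 0.839). Of the 12 tested, Tbx15 was the 1 with every old library below every young one, against 4.16% of all genes. Lhx2 did not exceed 4.37 TPM. Whether the mix of muscles differed between the ages was not tested.

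Likeness to each gene was measured as Pearson's r of log2(TPM + 1) over the 8 bulk libraries, among 7167 genes that averaged 5 TPM or more and were above 0 in every library. The libraries fall into ages and share their scaling, so r is a description. The genes most like Pax7 were Agk (r = 0.947), 4921524J17Rik (0.942), H1f0 (0.940), Rqcd1 (0.926) and Cebpz (0.917). Agk, a mitochondrial lipid kinase, was at 11.5 to 29.8 TPM in young libraries, 13.7 and 2.24 TPM in middle-aged and 7.82 to 9 TPM in old libraries, lowest in middle-aged library 2 as Pax7 was. The genes most like Pax3 were Elavl2 (0.965), Mphosph10 (0.961), B130024G19Rik (0.947), Zfp606 (0.937) and Nsa2 (0.933). Elavl2, an RNA-binding protein, was at 1.29, 2.36 and 1.62 TPM in old libraries, against 8.83, 5.58 and 9.12 TPM in young ones. Mphosph10, a nucleolar protein, put the 8 libraries in the same order as Pax3 (Spearman's rho 1). Pax3 and Pax7 themselves had r = 0.43 and rho = 0.62. In the order of likeness among the 7167 genes, Pax3 stood at place 1431 beside Pax7, and Pax7 at place 1162 beside Pax3.

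In the single-cell wells Pax7 was found often and Pax3 not at all. At a threshold of 1 TPM, Pax7 was found in 6 of 31 old wells (19.4%, exact Clopper-Pearson 95% interval 7.45 to 37.5%) and in 39 of 64 young wells (60.9%, interval 47.9 to 72.9%). Pax3 was listed at 0 TPM in all 31 old wells, which allows a share of up to 9.68% by a rule of 3 wells of the total. It was also at 0 TPM in all 64 young wells, which allows up to 4.69% by that rule. The upper ends of the exact Clopper-Pearson 95% intervals were higher, at 11.2% in old and 5.60% in young wells. Many old wells held few genes of any kind and say little about Pax3. In the wells with at least 776.5 genes, described next, the rule of 3 wells allows a share of up to 33.3% for 0 of 9 old wells. For 0 of 55 young wells it allows up to 5.45%. The number of wells that held both genes was 0 at either age. These intervals cover counting error between the wells of 1 mouse per age, so the ages were not tested against each other, and per their labels the wells of the 2 mice carry different index sets, which cannot be told apart from age.

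Old wells also held far fewer genes of any kind. The median number of genes at 1 TPM or more was 64 in old wells, against 1854 in young wells, and added spike-in RNAs took a median of 95.6% of the TPM in old wells, against 66.6% in young ones. Among wells with at least 776.5 genes, which is 0.5 times the median of all 95, Pax7 was found in 6 of 9 old wells (66.7%, interval 29.9 to 92.5%) and in 38 of 55 young wells (69.1%, interval 55.2 to 80.9%). With those wells alone, the shares of the 2 ages lay within each other's interval. At 10 TPM or more the shares over all wells were 4 of 31 in old (12.9%) and 27 of 64 in young (42.2%).

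Where Pax7 was found, its deposited level was 1.47 TPM in the lowest, 18.9 TPM in the median and 50.3 TPM in the highest of the 6 old wells, against 1.05, 32.3 and 228 TPM in the 39 young wells. Rescaled to the TPM left after removal of the spike-ins, the lowest, median and highest were 4.55, 78.5 and 246 TPM in old wells, against 3.27, 87.8 and 906 TPM in young wells. The medians of the 2 ages were closer after rescaling, and the spread within an age was far larger than the gap between them.

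The number of wells with each gene was set beside that of genes with a like bulk level. Pax7 averaged 291 TPM in young bulk libraries, and the 162 coding genes within 1.5-fold of that level were found in a median of 39 young wells (quartiles 26 and 50), the same number as Pax7. Pax3 averaged 13.3 TPM, and the 2941 coding genes of like level were found in a median of 3 young wells (quartiles 1 and 7), with 520 of them (17.7%) in 0 wells, as Pax3, and 2421 (82.3%) in at least 1 and at most 52 wells. The depth of these wells does not show whether cells without Pax3 transcripts exist. The other 7 Pax genes were also found in 0 wells.

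**Figure D4:**
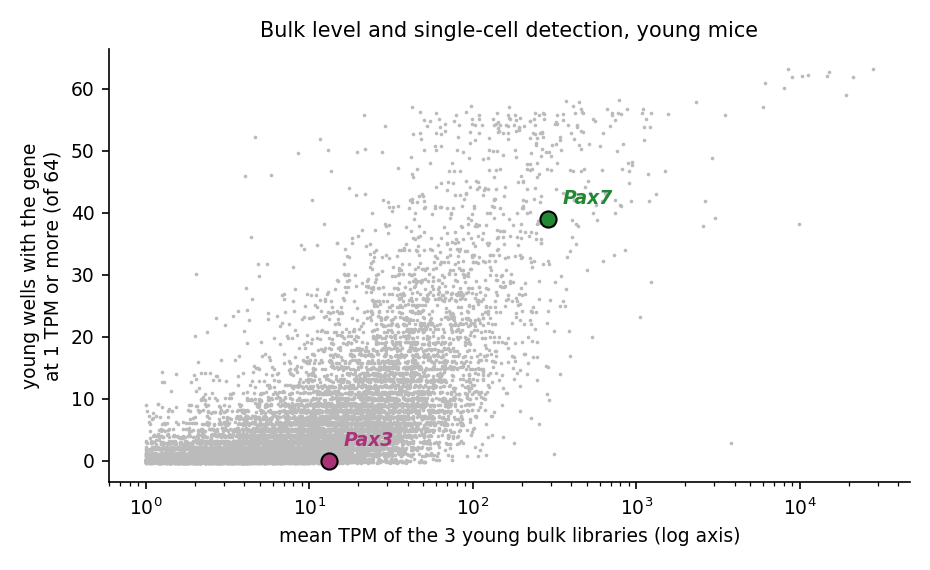
Number of young wells (of 64) with a gene at 1 TPM or more against its mean TPM in the 3 young bulk libraries (log axis), for each gene of at least 1 TPM (grey), Pax7 (green) and Pax3 (purple). Pax7 sits in 39 wells at 291 TPM and Pax3 in 0 wells at 13.3 TPM.

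Target and identity genes in the young wells of at least 776.5 genes are given as counts, for the 38 wells with Pax7 against the 17 without it. Myf5 was found in 37 of 38 wells with Pax7 and 13 of 17 without it, Id3 in 36 and 13, and Myod1 in 14 and 2. Cd34, a surface marker of quiescent stem cells, was found in 27 of 38 and 12 of 17, and Sdc4 in 37 and 16. Over all 64 young wells, those with Pax7 held a median of 1987 genes, against 1455 in those without, and the part of this difference in the counts was not tested.

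Over the 64 young wells, the genes whose level was most like that of Pax7 among 2637 genes were Gm6286 (r = 0.595), Itm2a (0.594), Igf2r (0.582), Rbm39 (0.549) and Rpl7a (0.530). Wells share their depth as well as their cells, and over the 55 wells of at least 776.5 genes the values were 0.538, 0.533, 0.490, 0.424 and 0.441 in the same order. Itm2a, an integral membrane protein, was found in 29 of 39 wells with Pax7 and 7 of 25 without it. Rbm39, a splicing factor, was found in 39 of 39 and 15 of 25. Pax3 was at 0 in every well and has no such value.

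At least 3 of the 11 muscle stem cell markers were found in 8 of 31 old wells and 53 of 64 young wells. Old wells held a median of 64 genes, against 1854 in young wells, so low counts in old wells say little about the cell types there. Of the 11 Schwann cell markers, 0 were found in any old well and 4 in young wells, each in 1 well. Among the bulk libraries, those of old mice held the most Schwann cell transcripts. Of the 6 melanocyte markers, 0 were found at either age. At least 1 of the 7 fibro-adipogenic markers was found in 4 of 31 old wells and 45 of 64 young wells, of which 9 young wells held 3 or more, and at least 1 of the 6 markers of smooth muscle cells and pericytes in 7 of 31 old and 32 of 64 young wells, of which 3 young wells held 3 or more. Muscle fibre markers were found in 0 old and 8 young wells, endothelial markers in 0 and 2, and tenocyte and macrophage markers in 0 and 1 each.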

How the data were processed

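The authors deposited TPM for 8 bulk libraries and 95 wells; STAR and mm10 are named in the submitters' processing notes, while annotation, strand setting and quantification tool remain not given in the sources used here. Per the labels' protocols, cDNA was amplified before library construction. TPM hold no read counts, so the depth of a library is unknown here and no counting interval was made for bulk values. Of 45798 bulk entries, 43283 carried an Ensembl ID (42782 of them in GENCODE release 21), 92 were spike-ins and 2423 had neither and were left out. In the wells, 43282 of 45797 entries carried one.

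Bulk values were compared with limma (version 3.58.1, under R 4.3.3) after a log2 transform of TPM + 1. The 22492 genes that averaged 1 TPM or more were tested, all 8 libraries in 1 fit with an intensity trend, two-sided, with Benjamini-Hochberg adjustment within a comparison and a threshold of 0.05. The procedure was also run on simulated data, and the outcome is not reported here. Single values were also tested by exact permutation of libraries. Same-numbered libraries of different ages correlated at -0.012 to 0.005 after removal of group means, so the numbers were not treated as pairs. Wells were counted at 1 TPM or more, with 95% Clopper-Pearson intervals, and a count of 0 allows up to 3 wells.

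Pax3 and Pax7, the gene lists and the markers were chosen with earlier results of these data known. Named genes were all Pax genes, all targets, the up to 4 smallest unadjusted p values of each other list for old against young, and the 5 genes most like each member, and some of these are not reported here. Alternatives were other pseudocounts, filters, scalings, fits and thresholds, a replicate block and each library left out; removal of spike-ins from wells was added after seeing the data. Other tools were scipy 1.17.1, pandas 2.3.3 and numpy 2.4.6 in Python 3.11.15, with matplotlib 3.10.9 for figures.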

Additional observations from a re-analysis of the deposited data

How the results depend on the processing

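Of the recomputed values, 167 kept their direction and side of the threshold, or lay near the reported value where there was no test. Some of the 167 could not move. Pax3 was at 0 TPM in every well, and a fitted difference is unchanged by a filter or by leaving out a library of an age outside the comparison. Of the other recomputed values, 22 moved and 1 changed sign. The difference of Pax7 between old and middle-aged libraries was -0.10 without middle-aged library 2. In no alternative did Pax3 or Pax7 pass the adjusted threshold. Over the 8 other settings, old against young lay at -1.20 to -0.77 for Pax3 and at -0.42 to -0.34 for Pax7. Leaving out 1 library at a time gave -1.27 to -0.96 and -0.53 to -0.31 for old against young, -0.58 to -0.07 and -1.18 to -0.33 for middle-aged against young, and -1.02 to -0.50 and -0.10 to 0.75 for old against middle-aged, Pax3 first in each. The difference in the log2 ratio of Pax3 to Pax7 (TPM + 1) then lay at -0.92 to -0.49, 0.17 to 0.60 and -1.26 to -0.92 in the same order of comparisons.

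The replicate numbers do not pair the libraries, and a replicate block left old against young at -1.09 for Pax3 and -0.42 for Pax7 (adjusted p = 0.889 each). It gave -0.31 and -0.86 for middle-aged against young and -0.78 and 0.44 for old against middle-aged. Quantile normalization moved the median of all genes in middle-aged against young from 0.18 to 0, and Pax3 there to -0.60.

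The number of genes called over the whole table was less stable; the cause was not tested. For middle-aged against young the count was 1, against 7 at a pseudocount of 0.1, 0 at a pseudocount of 5, 0 with no filter, 2 at a mean of at least 5 TPM, 0 without mitochondrially encoded genes, 4 after quantile normalization, 0 with only the 2 groups in the fit and 0 with the block. Leaving out 1 library gave 0 to 857 calls, with 599 without middle-aged library 1 and 857 without library 2, where the lone library is assumed to vary like the other groups. For old against middle-aged the count was 0, against 6 at a pseudocount of 0.1 and 1 after quantile normalization, and 0 to 785 with 1 library left out (554 without middle-aged library 1, 785 without library 2). The share of wells with Pax7 moved to 66.7% in old wells among those with at least 776.5 genes, and to 42.2% in young wells at 10 TPM or more.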
